A study of Rattus norvegicus with 44 samples.

Results

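The collapsin response mediator proteins (CRMPs) are a family of 5 cytosolic phosphoproteins encoded by Crmp1, Dpysl2, Dpysl3, Dpysl4 and Dpysl5. Their messenger RNA was followed here on Affymetrix rat arrays in 5 clonal lines of neural precursor cells. Members were all probe sets that the platform annotation gives to exactly 1 of these genes. This rule found 6 of 24183 probe sets, 1 each for Crmp1 (1387899_at), Dpysl2 (1371694_at), Dpysl4 (1371049_at) and Dpysl5 (1387141_at) and 2 for Dpysl3 (1388101_at and 1391010_at). Dpysl3 is led by 1388101_at, the brighter of its pair, and the other is described separately.

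CRMPs resemble the enzyme dihydropyrimidinase but are best known as proteins of the neuronal cytoskeleton. They were found as mediators of the growth cone collapse that class 3 semaphorins bring about through neuropilin and plexin receptors. They assemble into mixed oligomers, bind tubulin and actin regulators, and are released from tubulin when Cdk5, Gsk3 and related kinases phosphorylate them. In the developing brain they are abundant in young neurons that extend axons and dendrites, and some are also found in oligodendrocytes.

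The labels describe Ctx8 and L2.3 as multipotential, Ge6 as a GABAergic neuronal, L2.2 as an interneuronal and Ge2 as a nonneuronal precursor. All clones were grown with FGF2 on poly-lysine and laminin (day 0) and were then kept for 3 or 7 days in DMEM/F12 with B27 and 0.5% fetal bovine serum but no FGF2. No culture kept with FGF2 for 3 or 7 days is analysed here, so withdrawal, any other change of medium and time in culture cannot be told apart. Sister cultures were put on 44 arrays, so that 14 of the 15 groups (a clone on a day) have n = 3 and L2.2 on day 0 has n = 2. Each precursor type other than the multipotential one is represented by 1 clone, and p-values measure the spread between sister cultures only.

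Values are the authors' intensities, which run from 6.39 to 12734 over the table. Array medians lay between 24.2 and 28.9, and no array stood apart: Pearson r over all probe sets was 0.992 to 0.998 between arrays of 1 group. An intensity under 16.3, the 40th percentile of all values, is called dim here, since 40% of all values lie below it and fold changes from such levels are uncertain. Differences were tested on the log2 scale with limma over all probe sets, and a change is called at a Benjamini-Hochberg adjusted p under 0.05. In a bulk culture, fewer cells of a type and less RNA per cell cannot be told apart.

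The RefSeq tables of build GRCr8 place Crmp1 on chromosome 14 (77734675 to 77780916), Dpysl2 on chromosome 15 (45181041 to 45287065), Dpysl3 on chromosome 18 (35625357 to 35731152), Dpysl4 on chromosome 1 (203312646 to 203328523) and Dpysl5 on chromosome 6 (31295035 to 31379348), so each member is on a chromosome of its own. A promoter was listed for 4 of the 5 genes. The 250 bases before the start are shown for Crmp1 and Dpysl5, because both genes had their highest group mean in Ge6 at day 7 while they went opposite ways in Ge2. Both lie on the minus strand, Crmp1 at chr14:77780917-77781166 and Dpysl5 at chr6:31379349-31379598, and the sequences are RefSeq's, written 5′ to 3′. Capitals mark matches on either strand to the GC box (GGGCGG), the CCAAT box (CCAAT), the TATA box (TATAAA), an E-box (CAGCTG) or the octamer (ATGCAAAT).
Crmp1: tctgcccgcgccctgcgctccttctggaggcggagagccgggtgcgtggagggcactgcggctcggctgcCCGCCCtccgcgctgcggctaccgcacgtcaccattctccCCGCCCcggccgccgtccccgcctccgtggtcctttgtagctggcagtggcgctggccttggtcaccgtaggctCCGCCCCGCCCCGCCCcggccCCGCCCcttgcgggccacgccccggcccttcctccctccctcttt
Dpysl5: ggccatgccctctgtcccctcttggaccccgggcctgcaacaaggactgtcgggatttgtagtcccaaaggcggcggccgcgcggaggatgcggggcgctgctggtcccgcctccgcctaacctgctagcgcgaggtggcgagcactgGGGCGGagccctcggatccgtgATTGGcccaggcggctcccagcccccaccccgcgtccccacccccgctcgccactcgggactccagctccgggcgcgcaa
The Crmp1 window held 6 GC boxes, counted with overlaps, and none of the other motifs, and its GC content was 76.4%. The Dpysl5 window held 1 GC box and 1 CCAAT box, at 72.8% GC, against a median of 51.2% over all 33469 listed windows. Of all these windows, 30.5% held the GC box, 34% the CCAAT box, 12.9% the TATA box, 12% the E-box and 1.56% the octamer. These matches describe letters in the window and show no binding.

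By day 7 after FGF2 withdrawal the family as a whole had risen in the neuronal clones. All 5 genes rose in Ge6, where 53.7% of all probe sets were called in either direction, and all 5 rose in L2.2, where 44.1% were called. In Ctx8 4 genes rose and Crmp1 was not called (48.8% of probe sets were called). In L2.3 4 rose and Dpysl4 fell (41.9%). In the nonneuronal clone Ge2 1 gene rose, Dpysl5, 1 fell, Crmp1, and 3 were not called, while 54.4% of all probe sets were called there. The median log2 change of the 5 genes was 3.07 in Ge6, 2.24 in L2.2, 1.90 in L2.3, 1.22 in Ctx8 and -0.09 in Ge2, beside -0.05 to -0.03 for all probe sets. The range of the 15 group means was 74.5-fold for Dpysl5, 40.9-fold for Dpysl4, 31.1-fold for Crmp1, 25.9-fold for Dpysl3 and 2.62-fold for Dpysl2. Of all probe sets, 99.4%, 98.5%, 97.8%, 97.2% and 64.8% had at most that range, in the same order.

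**Figure D1:**
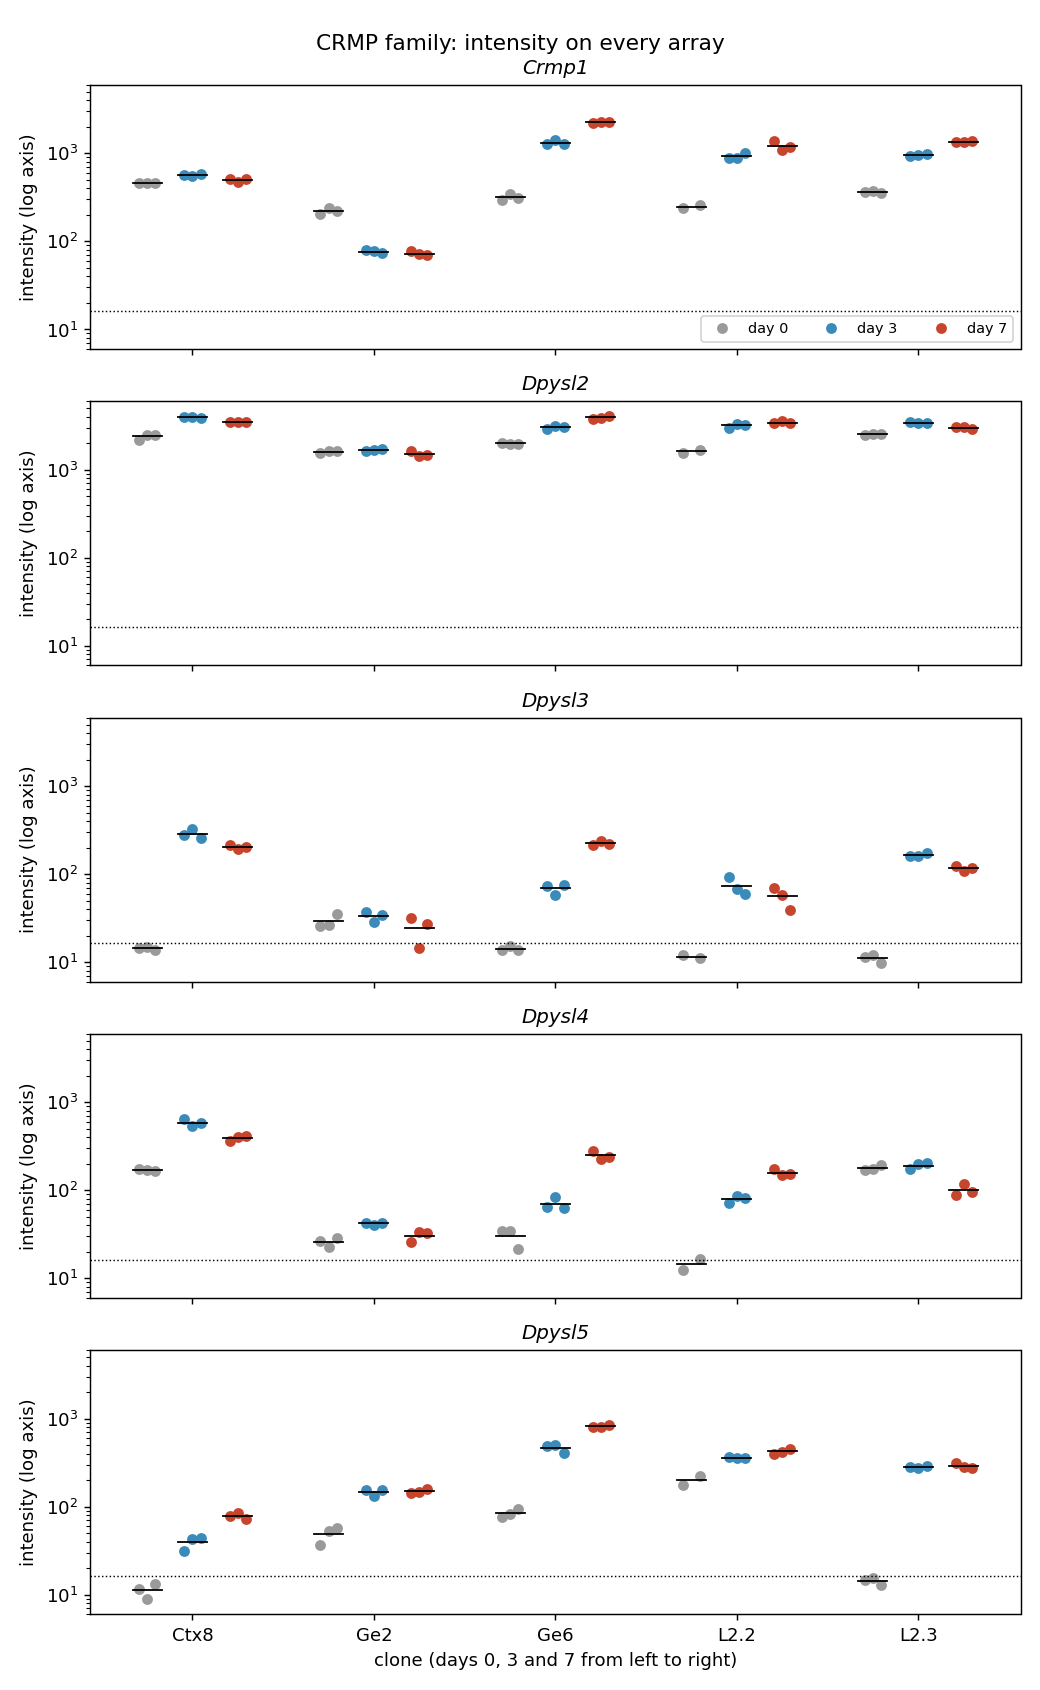
Intensity of the 5 CRMP genes (log axis) on each of the 44 arrays by clone, with day 0 in grey, day 3 in blue and day 7 in red, black bars at group means and a dotted line at 16.3. The Ge6 arrays of Crmp1 rise from 296 to 345 at day 0 to 2217 to 2299 at day 7, while those of Ge2 fall from 206 to 239 to 69.5 to 77.3.

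Dpysl2, whose protein carries tubulin to growing axons and helps to set the axon apart from dendrites, was well above the dim level on all 44 arrays. In Ge6 it read 2025, 1979.9 and 1983 at day 0, 2929.7, 3129 and 3024 at day 3 and 3801, 3916 and 4075 at day 7. The 3 days did not overlap, and the day 7 level was 1.97-fold that of day 0 (log2 change 0.98 ± 0.06, SE, adjusted p = 1.15e-17). In L2.2 it went from 1553 and 1670.3 through 3008, 3332 and 3219 to 3364, 3554 and 3374. Its rise there was about the size of that in Ge6, at 1.09 ± 0.06 in log2, and most of it had come by day 3.

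In the multipotential clones Dpysl2 was highest at day 3. The Ctx8 arrays read 2201, 2489.5 and 2470.1, then 3972, 3972 and 3848, then 3487, 3449.5 and 3454. Those of L2.3 read 2471, 2530.1 and 2547, then 3467, 3417 and 3385, then 3027, 3046 and 2904. From day 3 to day 7 it fell in both, by 0.18 ± 0.06 in Ctx8 (adjusted p = 0.0174) and by 0.19 ± 0.06 in L2.3 (adjusted p = 0.0151). Both of these small falls were lost when only the 2 groups compared entered the fit (adjusted p = 0.0756 and 0.119), and that of Ctx8 also without day 3 replicate 1 (0.0551), day 3 replicate 2 (0.0596) or day 7 replicate 2 (0.0527). That of L2.3 was also lost without day 3 replicate 1 (0.0571) or day 7 replicate 3 (0.0810). The day 7 levels nevertheless stayed above those of day 0, by 0.54 ± 0.06 and 0.25 ± 0.06. In Ge2 the arrays read 1536, 1639 and 1628 at day 0, 1613, 1679 and 1701 at day 3 and 1621, 1418 and 1474 at day 7. The days overlapped there, and the day 7 change of -0.09 ± 0.06 was not called (adjusted p = 0.175), though it was once the arrays were brought to a common median (-0.23, adjusted p = 8.37e-04) and without day 7 replicate 1 (-0.15, adjusted p = 0.0377).

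Crmp1, a Cdk5 substrate in semaphorin signalling, changed in opposite directions in different clones. In Ge6 it rose from 296, 345 and 312 at day 0 to 1286, 1407 and 1275 at day 3 and 2217, 2299 and 2264 at day 7, a 7.13-fold rise (log2 2.83 ± 0.07, adjusted p = 4.82e-28). In L2.2 it rose from 239 and 257 to 893, 899 and 1010.4 and then 1382, 1087 and 1190.0, 4.91-fold in all. The L2.3 arrays went from 363, 375 and 351 to 939, 958 and 973 and 1340.1, 1332 and 1396. In these 3 clones the days did not overlap, and each step was called.

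In Ge2 Crmp1 instead fell, from 206, 239 and 219 at day 0 to 80.2, 77.2 and 73.2 at day 3, and read 77.3, 71.4 and 69.5 at day 7. The day 7 level was 3.04-fold below day 0 (log2 -1.60 ± 0.07, adjusted p = 5.69e-21), and days 3 and 7 overlapped with no called difference. In Ctx8 the arrays read 460.3, 463 and 458 at day 0, 572, 555 and 584 at day 3 and 506, 479.6 and 514 at day 7. Ctx8 began with the highest Crmp1 of all clones and ended with only Ge2 below it. Its day 3 rise of 0.31 ± 0.07 was called (adjusted p = 3.50e-04), and its day 7 difference of 0.12 ± 0.07 was not (adjusted p = 0.18), though the arrays did not overlap. The later step of -0.19 ± 0.07 (adjusted p = 0.0589) was called as a decrease under several other settings, among them quantile normalization (0.0288).

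Dpysl3, which bundles actin filaments and is typical of newly formed neurons, was dim on every day 0 array of every clone except Ge2. In Ctx8 it went from 14.6, 15.01 and 13.8 at day 0 to 279.7, 328 and 254 at day 3 and 216, 191 and 202 at day 7. In L2.3 it went from 11.3, 12.2 and 9.74 to 159.9, 159 and 174 and 122, 109 and 117. Both multipotential clones were thus highest at day 3, though the later decreases of 0.50 in log2 were not called (adjusted p = 0.0609 and 0.0769). They were called with only the groups compared in the fit (0.00558 and 0.00391) and with array weights.

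Ge6 reached its Dpysl3 level later, with 13.8, 15.3 and 13.6 at day 0, 72.6, 58.3 and 75.3 at day 3 and 215, 240.4 and 221 at day 7. The L2.2 arrays read 12.03 and 11.01, then 91.7, 68.5 and 60.1, then 70.2, 57.9 and 39.3. The log2 changes at day 7 were 3.81 ± 0.19 in Ctx8, 3.99 ± 0.19 in Ge6, 3.40 ± 0.19 in L2.3 and 2.24 ± 0.21 in L2.2. With dim values raised to 16.3, they were 3.64, 3.79, 2.83 and 1.73, and all 4 were still called. In Ge2 the values were 25.9, 26.6 and 35.1 at day 0, 37.5, 28.6 and 34.1 at day 3 and 31.4, 14.6 and 27.00 at day 7. These overlapped, with a day 7 change of -0.32 ± 0.19 that was not called (adjusted p = 0.15). It was called as a decrease after quantile normalization (-0.45), after the arrays were brought to a common median (-0.46) and without day 7 replicate 1 (-0.54).

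The second probe set of Dpysl3, 1391010_at, showed none of this. Its 15 group means ran from 14.2 to 18.3, it exceeded 16.3 on 21 of 44 arrays, and no change between days was called in any clone. In L2.2 its day 7 change was called as lower after the arrays were brought to a common median (-0.41, adjusted p = 0.0267) and without day 0 replicate 3 (-0.58, adjusted p = 0.00881). The F test of clone differences in its day 7 change gave an adjusted p of 0.387 (0.0484 without L2.2 day 0 replicate 3). Its signal stayed near the dim level while the first probe set changed up to 19.7-fold, and the statements on Dpysl3 therefore rest on the brighter probe set alone.

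Dpysl4, a member linked to the growth of hippocampal neurites, started from levels that split the clones. At day 0 both multipotential clones held it at a high level, with 175, 171 and 164 in Ctx8 and 168, 175 and 193 in L2.3. The 3 other clones were lower without overlap, with 26.7, 22.5 and 28.7 in Ge2, 34.3, 34.99 and 21.8 in Ge6 and 12.5 and 16.4 in L2.2. Ctx8 rose to 639.7, 534 and 589 at day 3 and came down to 362, 407 and 419 at day 7. L2.3 read 174, 197 and 205 at day 3, overlapping day 0, and 89.7, 117 and 95.1 at day 7. That last level was 1.79-fold below day 0 (log2 -0.84 ± 0.14, adjusted p = 4.62e-06).

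In the neuronal clones Dpysl4 kept rising. Ge6 had 64.4, 84.2 and 63.7 at day 3 and 278, 229 and 241 at day 7, 8.38-fold its day 0 level. L2.2 had 71.1, 85.5 and 81.7 at day 3 and 176, 148 and 153 at day 7, 11.1-fold above a day 0 level that was dim on 1 of 2 arrays. With dim values raised to 16.3 the log2 change in L2.2 was 3.28 in place of 3.47. Ge2 passed through 42.8, 40.5 and 43.1 at day 3, a rise of 0.70 ± 0.14, to 25.9, 33.7 and 32.4 at day 7, which overlapped day 0 (adjusted p = 0.16). The step down between days 3 and 7 in Ge2 was called at -0.47 ± 0.14 (adjusted p = 0.0195) but was lost without day 3 replicate 1 (0.0614), day 3 replicate 3 (0.0585) or day 7 replicate 1 (-0.35, adjusted p = 0.133).

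Dpysl5, the most distant relative in the family and known to restrain the neurite-promoting action of Dpysl2, rose in all 5 clones by day 7. In Ge6 it went from 76.1, 82.2 and 95.1 at day 0 to 485, 506 and 408 at day 3 and 809, 813 and 851 at day 7. In L2.2 it was already present at day 0, at 177 and 221, and reached 365, 359 and 359 and then 399, 419.5 and 453. The rise of 1.10 ± 0.15 in L2.2 was the smallest of the 5 clones, from the highest day 0 level. In L2.3 it went from 14.5, 15.6 and 13.00, all dim, to 280.0, 272 and 289 and 312, 283 and 277. That rise of 4.34 ± 0.13 was the largest CRMP change at day 7 in any clone, 20.3-fold (adjusted p = 3.41e-25), and 4.15 in log2 with dim values raised to 16.3.

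The Ctx8 arrays of Dpysl5 read 11.6, 8.85 and 13.2 at day 0, 31.5, 42.4 and 43.7 at day 3 and 78.7, 84.8 and 72.03 at day 7. In Ctx8 it thus climbed at both steps, by 2.82 ± 0.13 in all, or 2.26 with dim values raised, but from a dim start to the lowest day 7 level of the 5 clones. In Ge2 it went from 37.1, 52.6 and 57.7 to 154, 132 and 155 and 142, 148 and 159. It was the only member that rose in Ge2 by day 7, 3.09-fold (log2 1.63 ± 0.13, adjusted p = 2.39e-13), and it did so by day 3, days 3 and 7 overlapping.

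**Figure D2:**
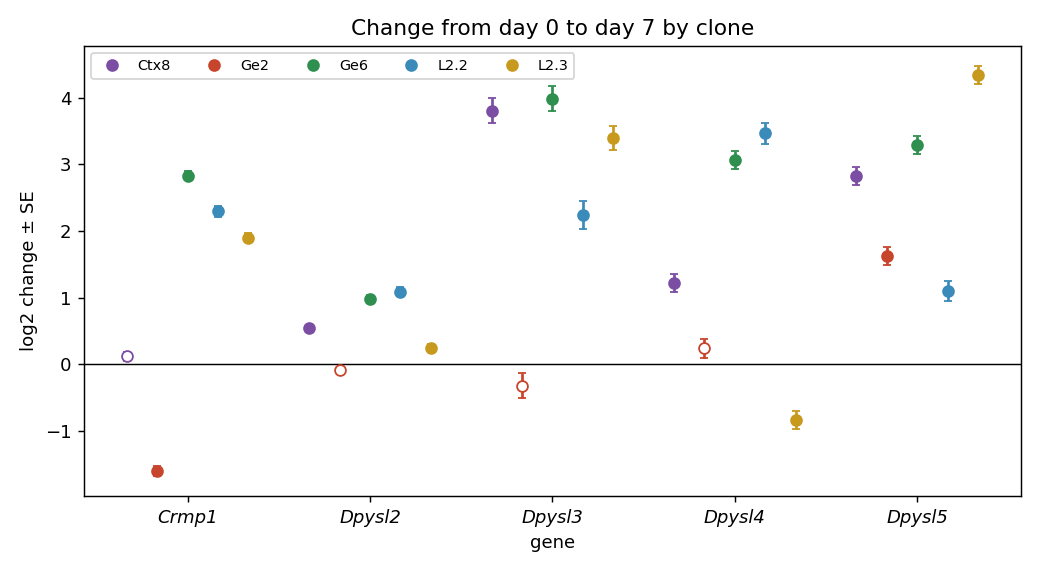
Log2 change of each CRMP gene from day 0 to day 7 (y axis, bars show SE) in the 5 clones (colours), with open points where the adjusted p was 0.05 or more. Crmp1 in Ge2 and Dpysl4 in L2.3 are the 2 called decreases, and Dpysl5 is above 0 in every clone.

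The day 7 change differed between the clones for all 5 genes in the F test, as it did for 65% of all probe sets. The distance between the most different clones was 4.44 in log2 for Crmp1 (adjusted p = 8.15e-29), 4.31 for Dpysl3, 4.31 for Dpysl4, 3.24 for Dpysl5 and 1.18 for Dpysl2 (adjusted p = 1.94e-15). Set against the mean change of the 4 other clones, the change in Ge6 was larger for all 5 genes, where 46.4% of all probe sets differed in either direction. The excess was 2.16 ± 0.08 for Crmp1, 2.05 ± 0.16 for Dpysl4, 1.71 ± 0.21 for Dpysl3, 0.82 ± 0.15 for Dpysl5 and 0.53 ± 0.06 for Dpysl2. That mean includes Ge2, and Ge6 did not have the largest rise of every gene. Dpysl2 and Dpysl4 rose more in L2.2, and Dpysl5 rose more in L2.3. Changes were not tested between single pairs of clones. The change in Ge2 was below that of the others for all 5 (45.8% of probe sets differed), by between 0.81 ± 0.06 for Dpysl2 and 3.68 ± 0.21 for Dpysl3.

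The remaining clones were mixed. In L2.3 all 5 genes differed from the other clones (40% of probe sets did). Dpysl5, Crmp1 and Dpysl3 were higher there, and Dpysl4, at -2.84 ± 0.16, and Dpysl2 were lower. In L2.2 4 differed (32.6%), with Dpysl4 higher by 2.55 ± 0.17 and Dpysl5 lower by 1.92 ± 0.16. The lower change of Dpysl3 in L2.2, -0.48 ± 0.23, was not called (adjusted p = 0.111) but was without day 7 replicate 1 (-0.67, adjusted p = 0.0284) or Ge2 day 7 replicate 2 (-0.56, adjusted p = 0.0163). In Ctx8 2 differed (34.2%): Crmp1 was lower by 1.24 ± 0.08 and Dpysl3 higher by 1.48 ± 0.21. Clones also differed in the level of every member at each day, at day 0 with 58% of all probe sets, at day 3 with 67.4% and at day 7 with 69.2%. The day 0 distance between clones was 4.16 for Dpysl5 and 3.64 for Dpysl4, beside 1.39 for Dpysl3, 1.06 for Crmp1 and 0.65 for Dpysl2.

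All 5 genes rose by day 3 in Ctx8 (47.5% of probe sets were called), Ge6 (43.6%) and L2.2 (40.8%). In L2.3 4 rose and Dpysl4 was not called (39.8%), and in Ge2 Dpysl4 and Dpysl5 rose, Crmp1 fell and 2 were not called (54.5%). The log2 changes at day 3 were largest for Dpysl3 in Ctx8, at 4.30 ± 0.19, and for Dpysl5 in L2.3, at 4.29 ± 0.13. The day 3 changes differed between clones for all 5 genes too, as for 60.7% of probe sets. Set against the mean of the 4 other clones, the day 3 change in Ge6 was called for 1 gene only, as higher (39.9% of probe sets differed). With dim probe sets left out, Dpysl3 was lower there (-0.50, adjusted p = 0.0454), and at a common median Dpysl5 was higher (0.41, adjusted p = 0.0263). In Ge2 all 5 were lower (46.1%). In Ctx8 5 differed (29.1%), in L2.2 4 (30.2%) and in L2.3 4 (31.9%).

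Between days 3 and 7 the clones went different ways, with all 5 genes rising again in Ge6. In Ge6, where 38.2% of probe sets were called, they rose as follows: Dpysl4 by 1.82 ± 0.14, Dpysl3 by 1.72 ± 0.19, Dpysl5 by 0.83 ± 0.13, Crmp1 by 0.77 ± 0.07 and Dpysl2 by 0.38 ± 0.06. L2.2 gained in 2 genes (15.1% called), Dpysl4 by 1.00 ± 0.14 and Crmp1 by 0.38 ± 0.07. L2.3 gained in Crmp1, by 0.50 ± 0.07, and fell in Dpysl4 and Dpysl2 (12.7%). Ctx8 gained in Dpysl5, by 1.01 ± 0.13, and fell in Dpysl4, by 0.57 ± 0.14, and Dpysl2 (18.2%). In Ge2 Dpysl4 was the member called, as lower (14.3%). Dpysl2 and Dpysl3 in Ge2, and Dpysl3 in L2.2, were also called as lower without day 7 replicate 1 of that clone (-0.20, -0.74 and -0.60). With all arrays kept, both Ge2 decreases were called under several other settings. Among these were quantile normalization for Dpysl2 (-0.19, adjusted p = 0.0103) and leaving out dim probe sets for Dpysl3 (-0.52, adjusted p = 0.0452). The late change was not tested between clones, so its difference between Ge6 and the others is a description. With a minimum fold of 1.2 in the test, several of these late changes were no longer called: Dpysl2 in Ge6 (adjusted p = 0.117), Ctx8 (1) and L2.3 (1), Crmp1 in L2.2 (0.734), and Dpysl4 in Ctx8 (0.284) and Ge2 (1).

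**Figure D3:**
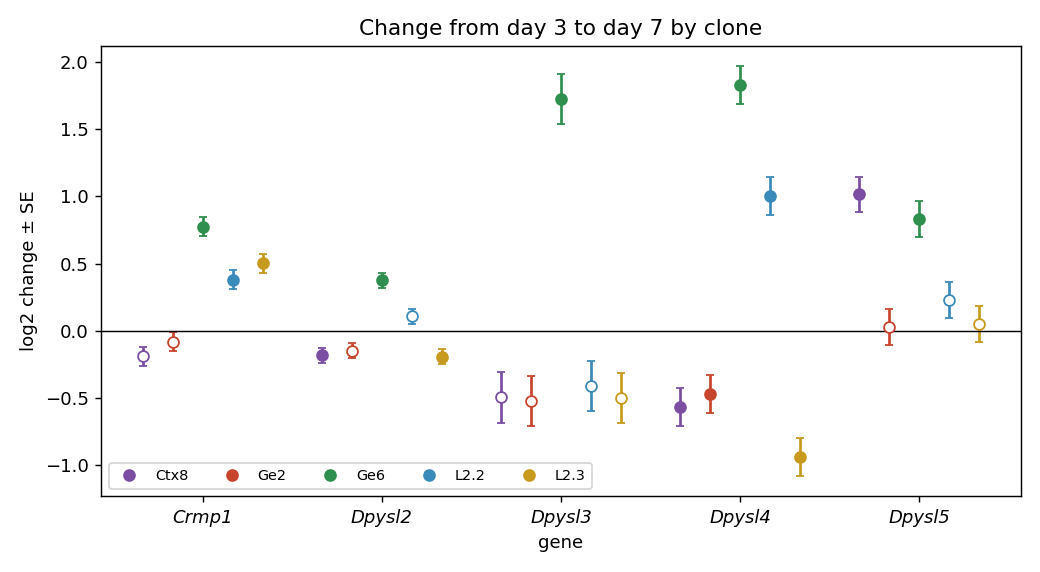
Log2 change of each CRMP gene from day 3 to day 7 (y axis, bars show SE) in the 5 clones (colours), with open points where the adjusted p was 0.05 or more. All 5 filled points of Ge6 lie above 0, from 0.38 for Dpysl2 to 1.82 for Dpysl4.

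Ordered by level over the 15 groups, Crmp1 was highest in Ge6 at day 7, at 2260.0 ± 41 (SD, n = 3), above L2.3 at day 7 with 1356 ± 34.9 (SD, n = 3) (adjusted p = 3.74e-11), and lowest in Ge2 at days 7 and 3, which did not differ by the test. L2.3 at day 7, Ge6 at day 3 and L2.2 at day 7 followed one another without a called difference. Dpysl2 shared its top between Ctx8 at day 3 and Ge6 at day 7, both at 3931 (adjusted p = 0.996), and 10 of its 14 neighbouring pairs did not pass. Dpysl3 ran from Ctx8 at day 3, 287 ± 37.5 (SD, n = 3), through Ge6 at day 7, 226 ± 13.1 (SD, n = 3), and Ctx8 at day 7 to dim day 0 levels, with 11 of 14 neighbouring pairs not passing.

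Dpysl4 was highest in Ctx8 at day 3, at 587 ± 52.9 (SD, n = 3), then in Ctx8 at day 7 and Ge6 at day 7, each step called, and lowest in L2.2 at day 0, at 14.5 ± 2.74 (SD, n = 2). Dpysl5 was highest in Ge6 at day 7, at 825 ± 23.3 (SD, n = 3), above Ge6 at day 3 (adjusted p = 2.71e-06), and lowest in Ctx8 at day 0, at 11.2 ± 2.2 (SD, n = 3), which did not pass against L2.3 at day 0 (adjusted p = 0.0678). For Crmp1, Dpysl4 and Dpysl5, 7 of 14 neighbouring pairs did not pass.

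The members did not follow 1 pattern. Over the 15 group means of log2 values, which share arrays and clones, Pearson r was 0.86 between Crmp1 and Dpysl2, 0.86 between Dpysl2 and Dpysl4, 0.79 between Dpysl2 and Dpysl3 and 0.68 between Dpysl3 and Dpysl4. Dpysl5 stood most apart, with r of 0.28 with Dpysl2 and -0.14 with Dpysl4. Its r with Crmp1 was 0.44 over all groups and 0.71 over the 12 groups without Ge2, the clone in which they moved oppositely.

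Among 6832 genes whose group means ranged at least 2-fold, those most like each member were found by the same r. Crmp1 was closest to Basp1, a membrane protein of growth cones (r = 0.967), then to Kctd10, Magi1, Myef2 and the kinesin light chain Klc1 (0.942). Dpysl2 was closest to Gap43, the growth cone protein that is also in the neuron marker list (0.952), then to Marcksl1, Pou6f1, the dynein chain Dync1i2 and Kcnmb4 (0.938). Dpysl3 was closest to Zfp40 (0.940), then to Chn2, Slc30a9, Mapk8ip3 and Wsb1 (0.895). Dpysl4 was closest to Tmem41b (0.943), the cadherin Pcdh17 (0.936) and the transcription factor Myc (0.930), then to Ttll7 and Hook3 (0.916). Dpysl5 was closest to Dchs1 (0.940), then to the axon initial segment protein Ank3 (0.925), Zfp57, Wnk2 and Txnip (0.907). No gene was named for more than 1 member.

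The likeness of Myc and Dpysl4 shows in the levels of Ctx8, but not at day 3 in L2.3. There Dpysl4 averaged 179, 192 and 101 at days 0, 3 and 7, with no called change by day 3. Myc read 153, 408 and 259 on average in Ctx8 at days 0, 3 and 7, and 170.4, 95.97 and 69.3 in L2.3. Its day 7 change was 2.74 ± 0.14 in Ge6, 1.49 ± 0.15 in L2.2, 0.76 ± 0.14 in Ctx8 and -1.31 ± 0.14 in L2.3, each called and in the direction of Dpysl4, and -0.01 ± 0.14 in Ge2, not called and dim at all 3 days. Pcdh17 changed by 3.22 ± 0.15 in Ge6 and -2.01 ± 0.15 in L2.3. For Dpysl2, Gap43 rose by 4.17 ± 0.14 in Ge6, 4.57 ± 0.16 in L2.2, 2.81 ± 0.14 in Ctx8 and 2.48 ± 0.14 in L2.3, and changed by 0.02 ± 0.14 in Ge2, not called. These genes were picked for their likeness, so their changes are a description.

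Of the semaphorin pathway through which CRMPs were found, 22 of 26 listed genes were measured, each by its brightest probe set. At day 7 11 rose and 4 fell in Ge6 (53.7% of all probe sets were called), 11 and 3 in L2.2 (44.1%), 7 and 2 in Ctx8 (48.8%), 7 and 5 in L2.3 (41.9%), and 5 and 6 in Ge2 (54.4%). The shares in Ctx8 and Ge2 were thus below those of all probe sets. With a minimum fold of 1.2, 4 rose and 2 fell in L2.3, and 2 fell in Ge6 and 1 in L2.2. With the arrays at a common median 11 genes of this list fell in Ge2. Sema3a, the ligand, was dim or near it everywhere, with group means of 12.6 to 23.3. Nrp1, its receptor, rose in L2.2 (2.15 ± 0.17) and Ge6 (1.88 ± 0.15) and fell in Ge2 (-1.05 ± 0.15) and L2.3 (-0.76 ± 0.15). Its signal was low throughout, at most 69.04 on average, and Nrp2 was dim in all 15 groups.

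Among the plexins, the signalling part of the receptor, Plxna3 rose in all 5 clones by 0.94 to 1.88. Plxna2 rose in Ge6 (2.50 ± 0.09), L2.2 (1.45 ± 0.10) and Ge2 (0.50 ± 0.09) and fell in L2.3 (-1.63 ± 0.09) and Ctx8 (-0.70 ± 0.09). Plxna1 was called in none and was dim in all 15 groups. L1cam, an adhesion molecule of the receptor complex, rose by 4.08 ± 0.16 in Ge6, from a dim 13.7 to 230.4, and by 1.89 ± 0.18 in L2.2. In L2.3 it rose by 0.40 ± 0.16, but only from 13.5 to 17.8, near the dim level. It was dim at all days in Ctx8 and Ge2. The kinase Fyn, which acts below plexins, rose most in Ctx8 (1.22 ± 0.10) and fell in Ge2 (-1.42 ± 0.10) and L2.3 (-0.30 ± 0.10). The ligand Sema3c rose in L2.2, Ctx8 and L2.3, by 1.79 to 3.22, and fell in Ge6 (-1.13 ± 0.14) and Ge2 (-0.79 ± 0.14). Of the small GTPases, Rhoa fell in 3 clones and Rac1 in 4, each by at most 0.73, though averaging over probe sets gave 0.02 for Rac1 in Ge6.

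The enzymes that add phosphate to CRMPs or remove it moved in both directions. Of 20 measured genes 8 rose and 5 fell in Ge6 (53.7% of all probe sets were called), 6 and 7 in L2.2 (44.1%), 6 and 7 in Ctx8 (48.8%), 5 and 7 in Ge2 (54.4%), and 3 and 10 in L2.3 (41.9%). These counts shrank with a minimum fold of 1.2, to 2 and 0 in L2.2, 1 and 4 in L2.3 and 3 and 3 in Ge2, with 4 risers left in Ge6 and 3 in Ctx8. With the arrays at a common median the split in Ge6 turned to 5 that rose and 8 that fell. Cdk5 changed by -0.14 to 0.19 and was called in L2.3 alone (0.19 ± 0.07). Its activator Cdk5r1 rose in Ge6 (1.19 ± 0.12, to 48.02 ± 4.7 (SD, n = 3)) and L2.2 (0.37 ± 0.13) and fell in Ge2 (-0.38 ± 0.12). Near the dim level were its means in L2.2 (16.01 at day 0, 20.7 at day 7) and Ge2 (17.2 and 13.1). Gsk3b rose in Ge6 (0.61 ± 0.13) and L2.2 (0.53 ± 0.15), and Gsk3a rose in Ge6 by 0.34 ± 0.10. Fer fell in all 5 clones by 0.54 to 1.08, and Dyrk1a and Dyrk2, priming kinases, each fell in 4. For Dyrk2 the direction depended on the probe set: the mean of its probe sets gave 0.07 in Ctx8, 0.24 in Ge2 and 0.21 in L2.2. Rock2 fell in all clones but Ge6, by 0.46 to 0.55. Camk2g rose in 4 clones, most in Ctx8 (2.04 ± 0.15), and the phosphatase subunit Ppp2r2b rose by 3.85 ± 0.12 in Ge2 and fell by 1.37 ± 0.12 in Ge6.

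Of the proteins that CRMPs bind, 24 of 27 were measured. At day 7 14 rose and 3 fell in Ctx8 (48.8% of all probe sets were called), 13 and 3 in L2.2 (44.1%), 12 and 7 in Ge6 (53.7%), 10 and 5 in L2.3 (41.9%), and 10 and 8 in Ge2 (54.4%). With a minimum fold of 1.2, 9 rose in Ctx8 and 8 in L2.2, while 1 fell in Ctx8, 4 in Ge6 and 2 in L2.3. The neuronal tubulin Tubb3, which is also a neuron marker, rose by 6.15 ± 0.08 in L2.3, 4.85 ± 0.08 in Ge6, 2.98 ± 0.09 in L2.2 and 2.29 ± 0.08 in Ctx8, and its called decrease of 0.42 ± 0.08 in Ge2 was between dim values. The kinesin heavy chain Kif5c rose in all 5 clones, from 0.53 ± 0.07 in Ctx8 to 2.78 ± 0.07 in Ge6, whereas its widely expressed relative Kif5b fell in all 5, by 0.26 to 0.78. Kif5a rose in Ge6 (1.25 ± 0.11), from a dim 10.3 to 24.6, and its called change in L2.2 (0.31 ± 0.12) was between dim values. The light chain Klc1 rose by 2.32 ± 0.07 in Ge6 and fell by 0.60 ± 0.07 in Ge2, in the direction of Crmp1 in both. The phospholipase Pld2 rose most in Ge2 (3.72 ± 0.10), where Numb, an endocytic adaptor, also rose most (1.55 ± 0.10). Itsn1 and Senp2 fell in all 5 clones, though the mean of its probe sets gave 0.12 for Itsn1 in Ge6.

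**Figure D4:**
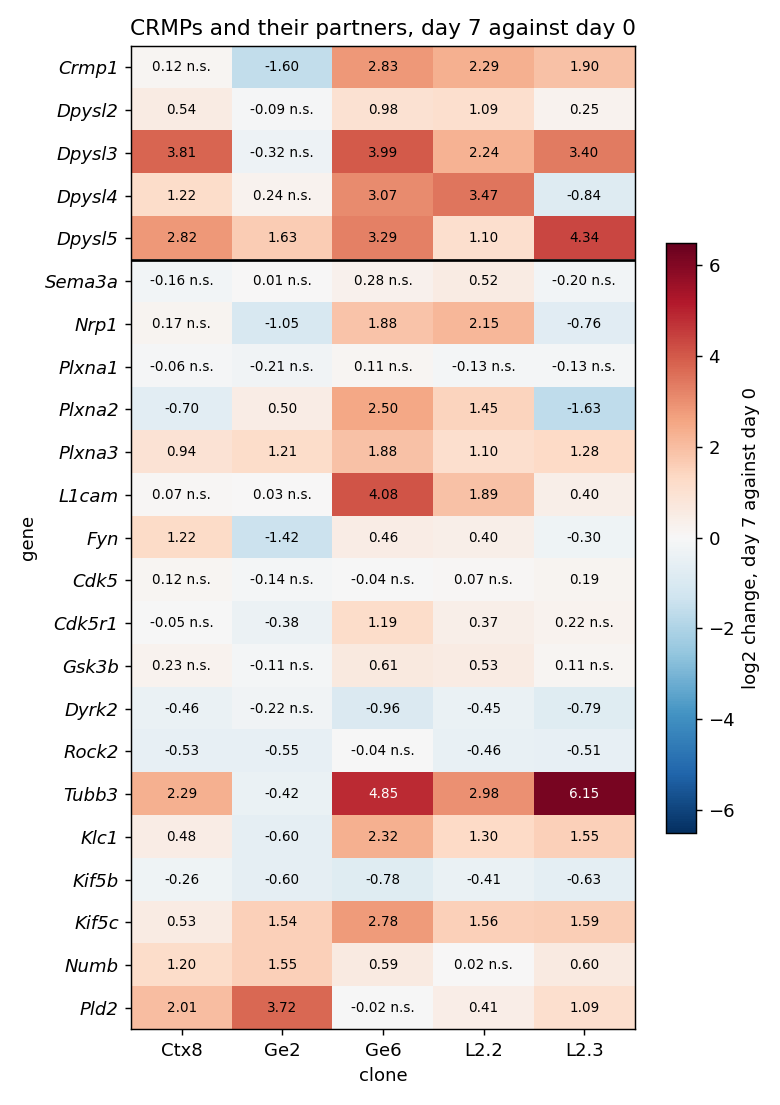
Log2 change from day 0 to day 7 (colour and number, with n.s. where the adjusted p was 0.05 or more) of the 5 CRMP genes, above the line, and of 18 genes of their receptors, kinases and cargo in the 5 clones. Ge6 holds the highest L1cam value (4.08), and Kif5c is positive and Kif5b negative in every clone.

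Cell class markers changed as well, and their part in the changes of the family was not tested. All 20 neuron markers rose by day 7 in Ge6 and L2.2, 16 in Ctx8, 15 in L2.3 and 5 in Ge2, where 3 fell (7 with the arrays at a common median). Of all probe sets 53.7%, 44.1%, 48.8%, 41.9% and 54.4% were called in these clones, in the same order. The share of neuron markers called in Ge2 was thus below that of all probe sets. The summed intensity of this list at day 7 was 16865 to 17223 in Ge6, 11403 to 13058 in L2.2, 9389 to 9799.7 in L2.3, 6635 to 7032 in Ctx8 and 2017 to 2209.8 in Ge2. In Ge2 the list had summed to 1446 to 1613 at day 0 and 2172 to 2351 at day 3. Of its 20 genes, 13 were dim in Ge2 on average at day 0 and 10 at days 3 and 7. Among them, Dcx, Stmn2 and Mapt were dim in Ge2 on average at days 3 and 7, while Dpysl5 rose there. Ctx8 stood between, with Dcx at 642 ± 31.7 (SD, n = 3) and Mapt at 849 ± 87.2 (SD, n = 3) at day 7 but Stmn2 dim at all days, at most 12.6 on average.

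Glial markers rose in the same cultures. Of 14 measured astrocyte markers, 14 rose in Ctx8, 13 in L2.3, 12 in L2.2, 10 in Ge2 and 9 in Ge6 (0, 0, 0, 1 and 3 fell). Of all probe sets 48.8%, 41.9%, 44.1%, 54.4% and 53.7% were called there, in the same order. Gfap reached 4388 in L2.3, 1804 in Ctx8, 1399.5 in L2.2, 799 in Ge2 and 205 in Ge6. The summed astrocyte list at day 7 ran from 4239 to 4566 in Ge6 to 28972 to 29910.5 in Ctx8. Of 16 measured oligodendrocyte markers 10 rose in Ctx8, 8 in L2.2, 7 in L2.3, 2 in Ge2 and 1 in Ge6 (4, 0, 4, 4 and 3 fell). In Ge2 and Ge6 this list was called less often than all probe sets (54.4% and 53.7%). Mbp, a myelin protein, was highest at day 3 in both multipotential clones, at 5515 ± 1092 (SD, n = 3) in Ctx8 and 4622 ± 804 (SD, n = 3) in L2.3. Cldn11, another myelin protein, was instead higher at day 7 than at day 3 in Ctx8, at 749 against 448. The summed oligodendrocyte list in Ctx8 overlapped between day 3 (17845 to 21364) and day 7 (18824 to 19288), and in L2.3 it was 10279 to 12371 at day 3 and 5621 to 6617 at day 7. At day 0 the summed oligodendrocyte list was 7314 to 7569 in Ctx8, 6876 to 6959 in L2.3 and 3009 to 3202 in Ge6, against 388 to 403 in Ge2 and 369.5 to 433 in L2.2.

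By day 7 all 18 dividing cell markers fell in Ctx8, Ge2 and Ge6 and 16 in L2.2 and L2.3. Of all probe sets 48.8%, 54.4%, 53.7%, 44.1% and 41.9% were called in these clones, in the same order. At day 3 8 had fallen in Ge6 (43.6% of all probe sets were called), where Top2a averaged 837 at day 0 and 1045 at day 3. Top2a, which untangles DNA in dividing cells, averaged 14.5 in Ge2 at day 3, a dim level, and 664 in L2.3 at day 7. Of 10 microglia markers 0 rose in any clone by day 7, while 1 fell in Ctx8, 1 in Ge2 and 2 in L2.3. Of 14 endothelial and mesenchymal markers 5 rose in Ge2, 4 in L2.2, 1 in Ctx8, 1 in L2.3 and 0 in Ge6 (1, 1, 1, 0 and 0 fell). Both lists were called less often than all probe sets in every clone.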

How the data were processed

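Total RNA from 44 cultures was hybridised to Affymetrix rat arrays. The deposited values are linear intensities per probe set, which the authors made with GCOS and RMA per the submitters' processing notes (versions not given in the sources used here). They were taken to log2 without pseudocount or further normalization. Platform annotation names 1 gene for 17547 of 24183 probe sets, several for 213 and none for 6423, and symbols were matched to RefSeq by gene ID for 17450. A model with 15 groups was fitted over all probe sets with limma 3.58.1 in R 4.3.3 (29 residual degrees of freedom), with Benjamini-Hochberg adjustment per comparison. A partner gene is given by its brightest probe set. The fit was tested on simulated data. Named besides the members are the 5 genes most like each, up to 3 risers and 3 fallers per partner list called in at least 3 clones, up to 2 of its brightest genes called in none, and fixed genes with a known tie to CRMPs or to a cell class. Members and lists were chosen with earlier results of these data known. Scaling, dim values, probe set choice, variance model, weights, a minimum fold, the replicate number and each array were varied, and raising dim values to 16.3 was added after seeing the data. Scan dates and detection calls were not used here.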

Additional observations from a re-analysis of the deposited data

Results flagged for a closer look

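The size of the change from day 0 differed between the clones for every CRMP gene, by an F test over the 5 clones at each time. It also did so for 65% of all probe sets at day 7 and 60.7% at day 3. At day 7 the most distant clones differed in log2 change by 4.44 for Crmp1, 1.18 for Dpysl2, 4.31 for Dpysl3, 4.31 for Dpysl4 and 3.24 for Dpysl5. For Crmp1 the extremes were Ge6 (2.83) and Ge2 (-1.60), and for Dpysl4 they were L2.2 (3.47) and L2.3 (-0.84), so both genes changed in opposite directions in 2 clones.

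At day 3 the same distances were 3.58 for Crmp1 (adjusted p = 3.54e-26), 0.93 for Dpysl2 (5.78e-11), 4.10 for Dpysl3 (1.86e-15), 2.37 for Dpysl4 (1.39e-11) and 3.42 for Dpysl5 (1.46e-16). The distance was larger at day 7 than at day 3 for Crmp1, Dpysl2, Dpysl3 and Dpysl4 and smaller for Dpysl5, differences that were not tested.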

How the results depend on the processing

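For 35 results of the 5 genes (day 7 against day 0 in each clone, and the F tests of clones at day 7 and of the day 7 change), 361 of 365 values under other settings and 363 of 365 with 1 array left out kept their side of the threshold, with 2 and 1 uncalled values changing sign. For 361 other results of the members, 24 of 3241 values under other settings lost a call, 61 gained one and 46 uncalled ones changed sign, and with 1 array left out 35 of 3783 lost a call, 27 gained one and 126 uncalled ones changed sign. Among the 35, the exceptions were in Ge2, apart from Dpysl2 in L2.3, whose 0.25 was lost with a minimum fold of 1.2 (adjusted p = 1). Dpysl2 in Ge2 at day 7 was called with arrays at a common median (-0.23), and ran from -0.15 (without day 7 replicate 1, called) to -0.050 (without day 7 replicate 2) with 1 array left out. Dpysl3 in Ge2 was called after quantile normalization (-0.45) and at a common median (-0.46), and ran from -0.54 (without day 7 replicate 1, called) to 0.011 (without day 7 replicate 2). The cause was not tested. Averaging each gene over its probe sets reversed Dyrk2 in Ctx8 (0.070), Ge2 (0.24) and L2.2 (0.21), Itsn1 in Ge6 (0.12) and Rac1 in Ge6 (0.021) at day 7.

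Bringing arrays to a common median moved all day 7 changes by -0.16 to -0.10 and gave 12261 to 15780 calls per clone, against 10144 to 13167, while a minimum fold of 1.2 left 5326 to 9152. At that minimum fold 554 to 4485 probe sets were called between days 3 and 7, against 3073 to 9236, and 1288 to 8689 with only the groups compared in the fit. With 1 value a gene, fewer features were tested and 6229 to 7693 were called at day 7. Deviations of same-numbered cultures of different groups had a mean r of 0.0099 (-0.160 to 0.151). This mean runs over pairs of any groups, and whether cultures of 1 number shared a batch or origin was not tested. A fit with the replicate number as a block kept 394 of 396 values, and called Dpysl3 in Ge2 between days 3 and 7 (-0.52, adjusted p = 0.0490) and in Ge6 against the other clones at day 3 (-0.51, adjusted p = 0.0468). Rises of Dpysl3 and Dpysl5 from dim day 0 signals are limited in precision by background.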
